A study of Mus musculus with 3 samples.

Results

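The ERK feedback inhibitors are a set of 10 mouse genes, Dusp1, Dusp4, Dusp5, Dusp6, Spry1, Spry2, Spry4, Spred1, Spred2 and Phlda1, chosen as all array probes annotated to these symbols. Of the 10 genes, 9 were measured by 16 probes among the 45281 of the array, and no probe is annotated to Spry1. A gene measured by several probes was represented by that with the highest mean, and 8 members were detected in at least 1 group (detection p-value below 0.01), against 8982 detected genes of 19057 measured. Spry2 was not detected. The genes were picked from the differences in signal between these same groups, which were already known, so their values are given as a description, with no test.

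Growth factor receptors activate Ras, Raf, MEK and finally the kinases ERK1 and ERK2, which enter the nucleus and switch on early genes. Some of those genes code for proteins that turn the same pathway off. The dual-specificity phosphatases (Dusp) remove phosphate from MAP kinases, the Sprouty (Spry) proteins interfere with signalling between receptor and Raf, and the Spred proteins bring the Ras inactivator neurofibromin to the membrane. In fibroblasts the RNA of these genes is widely used as a readout of ERK activity, but neither ERK phosphorylation nor any protein was measured here.

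NIH/3T3 cells, an established mouse fibroblast line, were compared in 3 groups grown in the same medium with 15% serum. The mock cells were mock treated, the 5aza-dC cells received 1 uM 5aza-dC (the nucleoside decitabine, which traps DNA methyltransferases once it is in the DNA), renewed daily for 3 days, and the recovery cells had the same exposure followed by 14 days without drug. Each group is 1 column of Illumina bead array signal, made from duplicate experiments. Each column was found to average 2 arrays, whose levels were computed back from both deposited tables and are used here as the spread. The sources do not say whether they are the duplicate experiments or repeat measurements of 1 RNA, so the spread may be technical, and the number of arrays limits the precision.

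The detected share of probes was 31.1% to 33.4% per group, and the median signal, which lies at background, was 61.1 to 63.8. The mean non-normalized signal was 321.2 for mock, 277.3 for 5aza-dC and 255.1 for recovery. Non-normalized signals of markers and members are therefore not on one scale between groups, and the normalized log2 levels are the ones compared. Over detected genes, the log2 levels of the arrays of a pair correlated with r = 0.9952 for mock, 0.9978 for 5aza-dC and 0.9972 for recovery, against 0.9489 to 0.9816 between arrays of different groups (a description across genes). Of 9 fibroblast markers, 8 were detected in every group. The 9 summed to a non-normalized signal of 17681 for mock, 12923 for 5aza-dC and 16589 for recovery. The 3 measured blood markers and the epithelial markers Epcam and Cdh1 were not detected, and of 4 endothelial markers only Pecam1 was detected, in 5aza-dC. The 5 epithelial markers summed to 399.5 for mock, 2356.8 for 5aza-dC and 506.1 for recovery, mostly through the keratins Krt8 and Krt14, and their part in the results below was not tested. In bulk RNA, fewer cells of a type and less RNA per cell cannot be told apart.

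Dusp5, Phlda1, Dusp6 and Spred1 were highest in mock, lowest in 5aza-dC and intermediate in recovery, and the arrays of the 3 groups did not overlap for any of the 4. This order was seen in 4 of 8 detected members and in 12.1% of all detected genes. Dusp1 alone of the members ran the other way, highest in 5aza-dC and lowest in mock, an order seen in 13.2% of all detected genes. The order mock above 5aza-dC above recovery, again with no overlap of arrays, held for none of the members and for 4.54% of all detected genes, although the columns of Dusp4 and Spry4 lay in that order. Dusp4 was alike in mock and 5aza-dC and lower in recovery. A member is called where the columns differed at least 2-fold and the gene was detected in the brighter group. In 5aza-dC against mock, 3 of 8 members were called lower, against a background of 2.79% of all detected genes, and 1 was called higher, against 6.60%. In recovery against mock, 2 were called lower (1.58% of all detected genes) and none higher (1.70%). Between recovery and 5aza-dC none was called in either direction (0.891% higher and 4.39% lower over all detected genes). Since the list was drawn up with these differences in view, nothing is read from the shares.

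**Figure D1:**
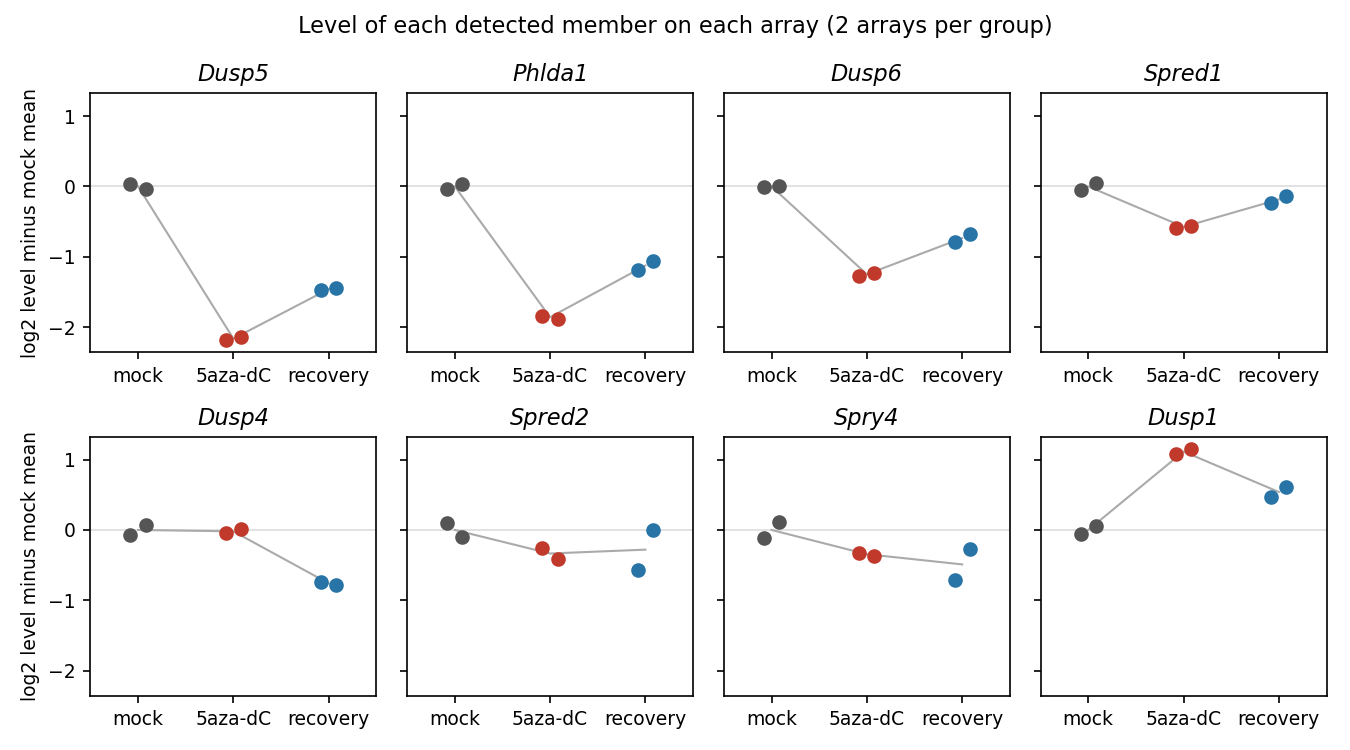
Log2 level of the 8 detected members on each of the 2 arrays per group (points), relative to the mean of the mock arrays of the same gene, with a line through the group means. Dusp5, Phlda1, Dusp6 and Spred1 are lowest in 5aza-dC and only partly back in recovery, Dusp4 is lower in recovery alone, and Dusp1 is highest in 5aza-dC.

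Dusp5 codes for a nuclear phosphatase that acts on ERK and not on the stress kinases, and it had the largest difference of the members. Mock cells gave a non-normalized signal of 660.1, 5aza-dC cells 163 and recovery cells 211. On the normalized log2 scale the arrays stood at 9.09 and 9.03 in mock, 6.87 and 6.92 in 5aza-dC, and 7.58 and 7.62 in recovery. The mock arrays were thus far above the others, and the recovery arrays lay closer to 5aza-dC than to mock. The columns differed by -2.15 (4.43-fold lower) between 5aza-dC and mock, with -2.22 to -2.11 over the array pairs. Recovery minus mock was -1.45 (-1.51 to -1.41 over the array pairs) and recovery minus 5aza-dC was 0.70 (0.66 to 0.75). Among the 8982 detected genes the Dusp5 difference ranked 10th from the lowest in 5aza-dC against mock and 27th in recovery against mock.

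The promoter of Dusp5 is shown because it is the member with the largest difference and because it carries a pair of adjoining CArG boxes, the sequence bound by the transcription factor Srf. The window runs from 250 bases before to 50 after the annotated start (RefSeq, GRCm38.p6, chr19:53528895-53529194, plus strand), and capitals mark the CArG boxes.
Dusp5: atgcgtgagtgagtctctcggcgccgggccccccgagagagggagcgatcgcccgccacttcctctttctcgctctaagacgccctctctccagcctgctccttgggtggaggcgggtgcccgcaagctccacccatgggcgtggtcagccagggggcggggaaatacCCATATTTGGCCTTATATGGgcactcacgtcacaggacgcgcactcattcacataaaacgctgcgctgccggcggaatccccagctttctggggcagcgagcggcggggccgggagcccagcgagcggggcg
The boxes begin 82 and 72 bases before the start. The CArG pattern is the same on both strands, so that each box reads on both is no added feature. Of 32851 promoters of this length, 1.63% hold a CArG box on either strand and 6 hold 2 or more. The RNA of Srf itself, which is on the list of ERK-responsive transcription factors below, differed by -1.24 between 5aza-dC and mock and by -0.43 between recovery and mock. The match is a description of the letters only, and Srf binding was not measured.

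Phlda1 codes for a pleckstrin homology-like domain protein whose gene is induced by growth factors. Mock cells gave a signal of 1119.6, 5aza-dC cells 287 and recovery cells 401. The arrays had log2 levels of 9.78 and 9.86 in mock, 7.98 and 7.94 in 5aza-dC, and 8.63 and 8.76 in recovery. As for Dusp5, no array of one group reached those of another. The difference was -1.88 in 5aza-dC against mock (3.68-fold lower, -1.92 to -1.80 over the array pairs) and -1.13 in recovery against mock (2.18-fold lower, -1.23 to -1.02). Recovery minus 5aza-dC was 0.75 (0.66 to 0.82). The difference from mock ranked 16th from the lowest of all detected genes in 5aza-dC and 101st in recovery.

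Dusp6 codes for the cytoplasmic ERK phosphatase that is the best known member of the feedback. Its brightest probe had a signal of 2153 for mock, 775 for 5aza-dC and 964 for recovery, and array levels of 10.79 and 10.81, 9.53 and 9.57, and 10.01 and 10.12 in the same order. The groups did not overlap. The log2 difference was -1.25 in 5aza-dC against mock (2.38-fold lower, -1.29 to -1.22 over the array pairs), -0.73 in recovery against mock (-0.80 to -0.67) and 0.52 in recovery against 5aza-dC (0.44 to 0.60). It was past 2-fold in 5aza-dC and short of it in recovery. A second probe gave -1.15 and -0.61 against mock. The third Dusp6 probe was detected in mock alone, at least 1.24-fold above 5aza-dC. All 3 probes were therefore brightest in mock.

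The promoter of Dusp6 is shown for comparison, as that of another lower member (RefSeq, GRCm38.p6, chr10:99262981-99263280, plus strand). It has no match to any of the motifs searched, so it holds no capitals.
Dusp6: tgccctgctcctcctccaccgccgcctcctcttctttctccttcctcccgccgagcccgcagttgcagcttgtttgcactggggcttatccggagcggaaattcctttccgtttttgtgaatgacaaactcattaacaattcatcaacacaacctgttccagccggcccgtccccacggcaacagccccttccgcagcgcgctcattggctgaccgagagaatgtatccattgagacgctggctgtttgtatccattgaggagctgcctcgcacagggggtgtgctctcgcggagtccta
The motifs searched on both strands were the CArG box, the ETS-type sequence CCGGAAG (8.86% of all promoters) and the cyclic AMP element TGACGTCA (1.79%). The AP-1 site TGANTCA (7.81%) and the TATA box TATAAA (13.6%) were searched as well. Shorter or partly matching forms were not searched, the shorter GGAA among them, which this window does hold. No match says only that these letters are absent from this window.

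Spred1 codes for a membrane protein that recruits neurofibromin to Ras. Mock cells gave a signal of 469, 5aza-dC cells 279.9 and recovery cells 316, with array levels of 8.44 and 8.54, 7.90 and 7.93, and 8.25 and 8.36. The order of the groups was that of Dusp5, with smaller gaps. The difference was -0.59 in 5aza-dC against mock (1.51-fold lower, -0.64 to -0.51 over the array pairs) and -0.20 in recovery against mock (-0.29 to -0.09), so Spred1 was not called in either comparison. Recovery minus 5aza-dC was 0.39 (0.32 to 0.46).

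Dusp1 codes for a nuclear phosphatase of p38, JNK and ERK that is induced by stress as well as by growth factors, and it was the only member higher in 5aza-dC. Mock cells gave a signal of 629, 5aza-dC cells 1088 and recovery cells 661. The arrays stood at 8.90 and 9.01 in mock, 10.03 and 10.11 in 5aza-dC, and 9.43 and 9.56 in recovery, so the groups did not overlap. The difference was 1.10 in 5aza-dC against mock (2.14-fold higher, 1.02 to 1.21 over the array pairs), 0.53 in recovery against mock (0.41 to 0.66) and -0.57 in recovery against 5aza-dC (-0.68 to -0.47). With each column scaled to the median of all probes, the Dusp1 differences from mock were 0.88 in 5aza-dC and 0.14 in recovery, and the call was lost. That scaling moves the median of all detected genes to -0.15 in 5aza-dC against mock and to -0.29 in recovery against mock. The all-probe median lies at background and was alike in mock (63.8), 5aza-dC (61.2) and recovery (61.1). The mean signals (321.2, 277.3 and 255.1) were not alike, so scaling to that median need not put detected genes on one scale. The part of this in the lost call, and in the other shifts under that scaling, was not tested.

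The promoter of Dusp1 is shown because this member went against the others (RefSeq, GRCm38.p6, chr17:26508423-26508722, minus strand). Capitals mark the cyclic AMP element, the binding sequence of CREB, which starts 143 bases before the gene start.
Dusp1: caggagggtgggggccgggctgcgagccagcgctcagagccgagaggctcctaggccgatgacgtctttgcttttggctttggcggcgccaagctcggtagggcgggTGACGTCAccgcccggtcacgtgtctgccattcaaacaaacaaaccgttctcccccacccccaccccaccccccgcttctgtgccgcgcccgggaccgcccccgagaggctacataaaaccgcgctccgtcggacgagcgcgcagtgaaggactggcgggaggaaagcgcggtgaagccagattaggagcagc
No CArG box was found here, and the exact sequence TGACGTCA is absent from the Dusp5 and Dusp6 windows. Partial matches were not searched in any window, so this is no contrast between the members. The promoter table matched 7 of the 10 members; Dusp4, Spry4 and Phlda1 had no entry. The 7 promoters hold 17 to 40 CpG dinucleotides, against a median of 7 and an upper quartile of 20 over all promoters, and 5 of the 7 exceed that quartile. The promoters compared include those of genes that were not detected here. Dusp5 has 28 CpG, Dusp1 has 31 and Dusp6 has 19, and a link between this count and the RNA differences was not tested. DNA methylation was not measured in these samples.

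Dusp4 codes for a nuclear phosphatase of ERK and JNK and was measured by 4 probes. The brightest had a signal of 877 for mock, 719 for 5aza-dC and 396 for recovery, with array levels of 9.38 and 9.52, 9.40 and 9.46, and 8.71 and 8.67. The mock and 5aza-dC arrays overlapped, and both recovery arrays lay below all others. The difference was -0.04 in 5aza-dC against mock (-0.12 to 0.08 over the array pairs), -0.78 in recovery against mock (1.71-fold lower, -0.85 to -0.67) and -0.74 in recovery against 5aza-dC (-0.79 to -0.69). The other 3 probes were lower in recovery than in mock as well, with differences of -0.59, -1.88 and -0.51. They disagreed on 5aza-dC against mock, at -0.04, -0.66 and 0.19. The probe at -0.66 was also the one whose mock arrays stood furthest apart (7.19 and 7.81), and at -1.88 it alone of the 4 passed 2-fold in recovery.

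**Figure D2:**
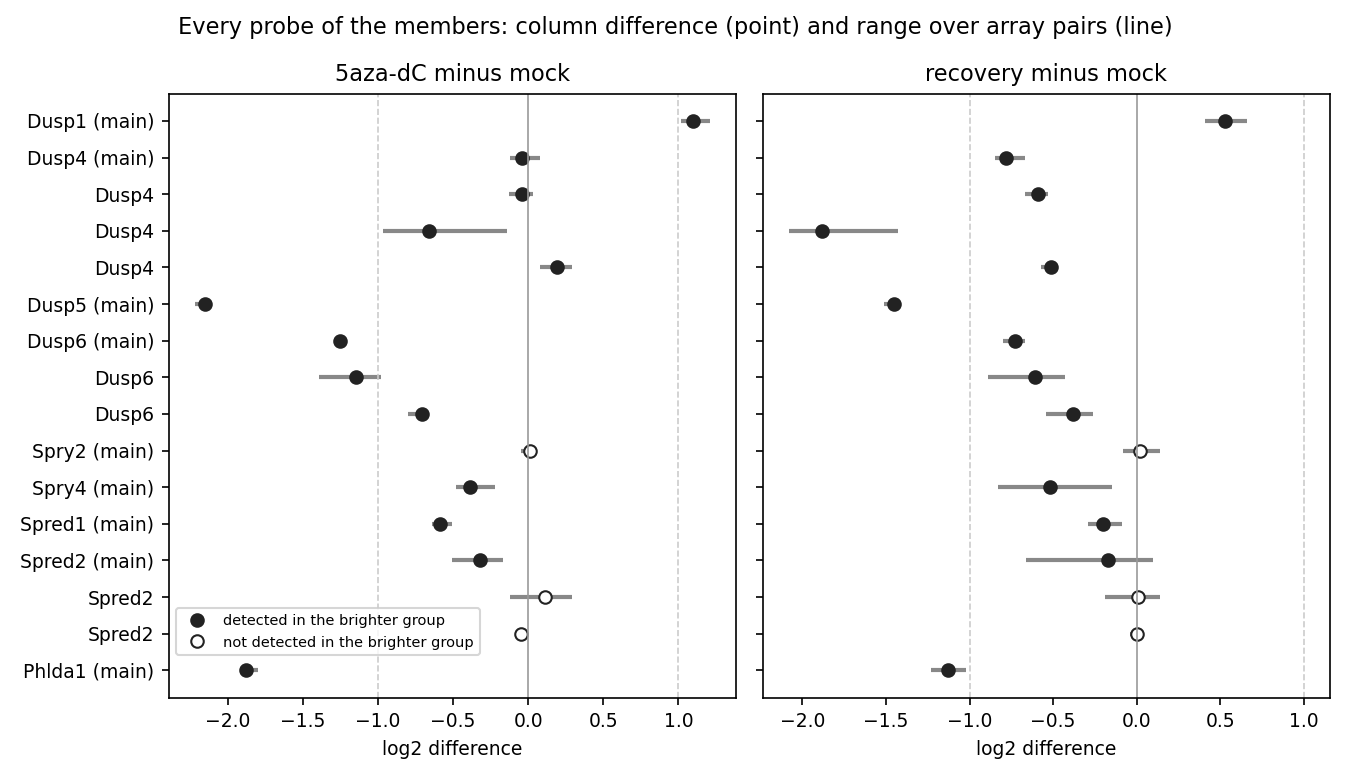
Log2 difference of each of the 16 member probes in 5aza-dC against mock and in recovery against mock. Points are the deposited columns, lines the range over the 4 pairs of arrays, dashed lines 2-fold, open points probes not detected in the brighter group. Columns and arrays were normalized in separate runs, so a point can lie outside its line. The dimmest Dusp6 probe does so in 5aza-dC against mock (-0.71, with -0.80 to -0.74 over the array pairs). The 3 Dusp6 probes lie on the same side in both panels, and the 4 Dusp4 probes are all below 0 in recovery but on both sides of 0 in 5aza-dC.

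The remaining members were close to background. Spry4, the only Sprouty member that was detected, had a signal of 81.3 for mock, 69.0 for 5aza-dC and 64.5 for recovery, and was detected in mock alone. Its array levels were 4.90 and 5.13, 4.69 and 4.65, and 4.30 and 4.75. The mock arrays lay above the rest, while the recovery arrays spanned those of 5aza-dC. In the main setting mock was at least 1.30-fold above 5aza-dC and at least 1.12-fold above recovery. Over the alternatives the difference ran from -0.46 to -0.01 in 5aza-dC against mock and from -0.72 to -0.01 in recovery against mock.

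Spred2, the relative of Spred1, was measured by 3 probes, of which 1 was detected. The detected probe had a signal of 83.9 for mock, 72.7 for 5aza-dC and 71.7 for recovery, with array levels of 5.28 and 5.09, 4.93 and 4.77, and 4.62 and 5.19. The difference of -0.32 in 5aza-dC against mock kept the arrays apart, but the recovery arrays spread across both other groups. Spry2, a negative regulator of receptor signalling like Spry4, gave 58.5 for mock, 56.9 for 5aza-dC and 57.6 for recovery and was not well above background in any group.

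**Figure D3:**
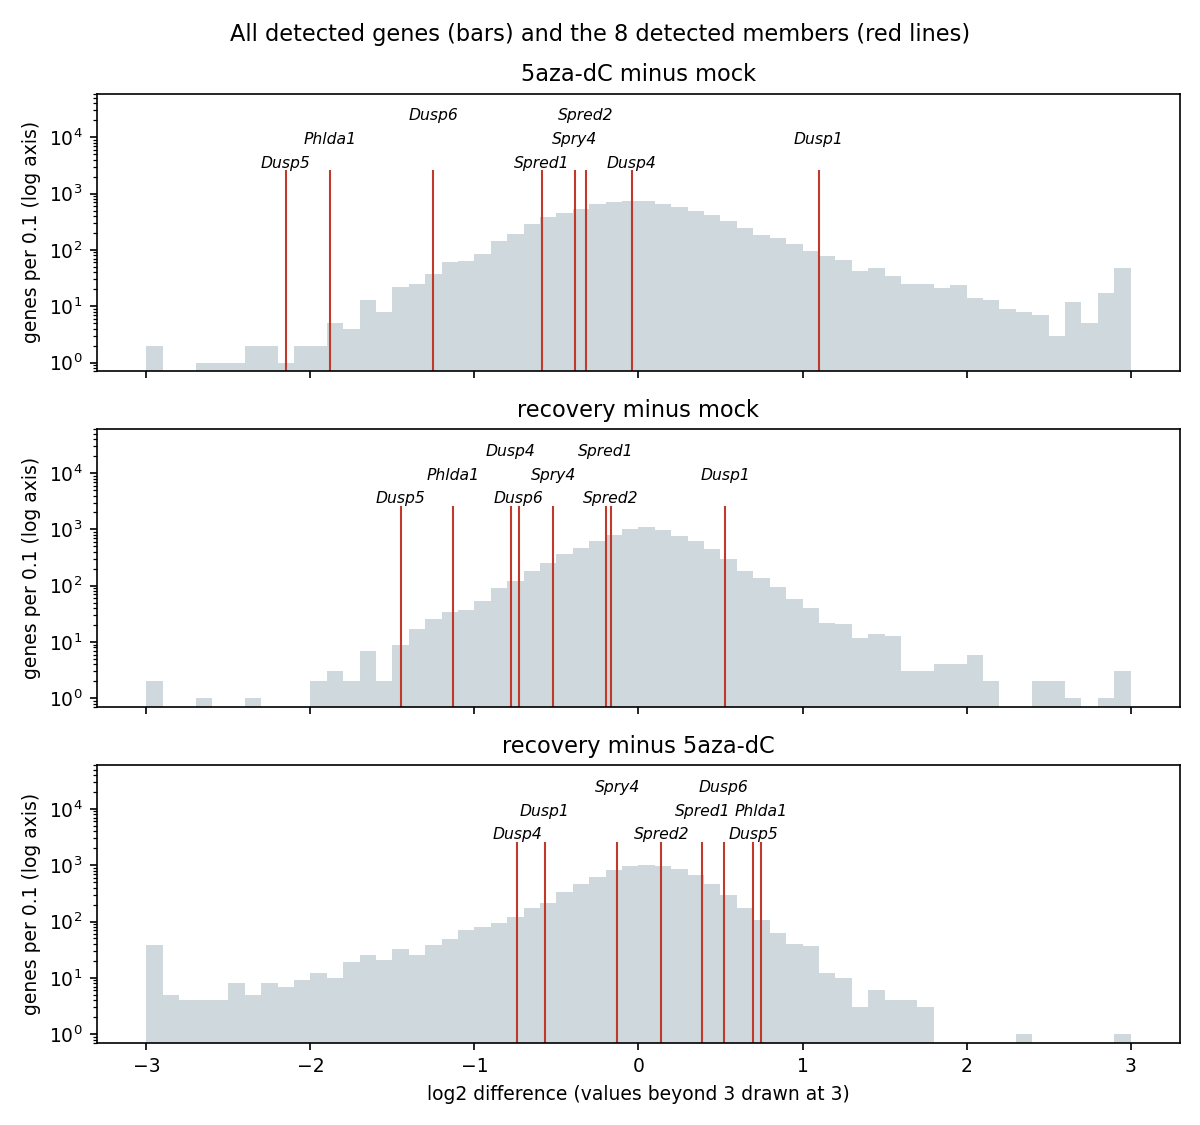
Distribution of the log2 differences of the 8982 detected genes (bars, 0.1 wide, log axis) in the 3 comparisons, with the 8 detected members as red lines. Dusp5 and Phlda1 lie in the lower tail in both comparisons with mock, and no member passes 2-fold between recovery and 5aza-dC.

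Over the 8 detected members the median difference was -0.49 in 5aza-dC against mock, beside 0.01 for all detected genes, and -0.63 in recovery against mock, beside 0.03. Recovery against 5aza-dC gave 0.27, beside 0.02, and 0.05 without the second recovery array. Over the members detected in all 3 groups the first of these medians was -0.92. These comparisons share groups, and the members' own values stand side by side above. Members whose arrays lay wholly below those of mock numbered 6 of 8 in 5aza-dC (38.7% of all detected genes) and 6 of 8 in recovery (32.5%). In each case 1 lay wholly above, Dusp1 (40.2% and 38.4%). The recovery arrays lay wholly above those of 5aza-dC for 4 members (40.7%) and wholly below for 2 (36.6%). At a minimum of 1.5-fold, 4 members were lower and 1 higher in 5aza-dC against mock (11.2% and 15.2% of all detected genes), and 4 lower and none higher in recovery against mock (6.89% and 7.38%). In recovery against 5aza-dC, 2 were then higher, Dusp5 and Phlda1, and 1 lower, Dusp4 (5.66% and 9.83%).

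Genes whose pattern over the 3 groups was most like that of Dusp5 were found by the distance between log2 levels centred on each gene's mean, over 3 groups and 8974 genes. The 5 nearest were Hmga2-ps1 (distance 0.139), Il11 (0.142), Mfsd2a (0.171), Hbegf (0.258) and Pus7l (0.285). Their differences in 5aza-dC against mock ran from -2.33 for Hbegf to -1.96 for Il11. Il11, a cytokine, and Hbegf, a ligand of the EGF receptor, were also on the list of ERK-responsive secreted genes.

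The pathway around the members was described with 6 lists, also drawn up with earlier results known. In the kinase cascade and its adaptors, 18 of 26 genes were measured and 11 detected. In 5aza-dC against mock 1 was called higher and none lower (6.60% and 2.79% of all detected genes), with a median of 0.01. In recovery against mock 1 was called higher and none lower (1.70% and 1.58%), with a median of 0.22. Of the 11, 6 lay wholly above mock on their arrays and 2 wholly below (38.4% and 32.5% of all detected genes). With each column scaled to the median of all probes, the median in recovery against mock was -0.13 and no gene of the list was called in recovery. The called gene was Gab1, a docking protein downstream of receptors, at 1.56 in 5aza-dC and 1.29 in recovery against mock. Its arrays were at 8.13 and 8.31 in mock, 9.87 and 9.76 in 5aza-dC, and 9.49 and 9.59 in recovery. The kinase gene Map2k2, which codes for MEK2, gave -0.04 and -0.09 against mock.

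Growth factor receptors (15 measured, 12 detected) had 1 gene called higher and none lower in 5aza-dC against mock (6.60% and 2.79% of all detected genes). In recovery against mock 2 were called higher and none lower (1.70% and 1.58%). The medians were -0.05 and 0.27, the latter -0.07 with each column scaled to the median of all probes. No receptor was called in recovery under that scaling, and none in either comparison with the mean of all probes of a gene. Pdgfra, a PDGF receptor, was 1.53 higher in 5aza-dC and 1.13 higher in recovery. Fgfr2, an FGF receptor, was 1.33 higher in recovery and differed by 0.58 in 5aza-dC.

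Other negative regulators of receptor, Ras and Raf signalling (19 of 20 measured, 16 detected) had 2 called lower and none higher in both comparisons with mock. Over all detected genes the shares were 2.79% lower and 6.60% higher in 5aza-dC, and 1.58% and 1.70% in recovery. The medians were -0.32 and -0.07, the latter -0.40 with scaling to the all-probe median. Both called genes act on the EGF receptor. Errfi1, which binds and inhibits the receptor kinase, had array levels of 11.21 and 11.27 in mock, 9.46 and 9.45 in 5aza-dC, and 9.62 and 9.69 in recovery, a difference of -1.80 and -1.60 from mock. Lrig1, which promotes loss of the receptor, differed by -1.17 and -1.34. Recovery minus 5aza-dC was 0.20 for Errfi1 and -0.17 for Lrig1.

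Other MAP kinase phosphatases (13 measured, 10 detected) were spread around 0, with medians of 0.03 in 5aza-dC and -0.15 in recovery against mock (-0.08 and -0.53 with scaling to the all-probe median). The single call was Dusp2, a nuclear ERK phosphatase, at -1.02 in recovery against mock and -0.61 in 5aza-dC. This call was lost at an offset of 50, without background correction, with the mean of all probes of a gene and without the first mock array. Over all detected genes, 1.58% were called lower and 1.70% higher in recovery against mock, and 2.79% and 6.60% in 5aza-dC.

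ERK-responsive transcription factors and early genes (31 of 32 measured, 25 detected) had 3 called lower and 1 higher in 5aza-dC (2.79% and 6.60% of all detected genes). In recovery 1 was called lower and none higher (1.58% and 1.70%). The medians against mock were -0.45 in 5aza-dC and -0.21 in recovery, the latter -0.59 with scaling to the all-probe median. Egr3, an early zinc finger factor, was at least 5.99-fold lower in 5aza-dC and differed by -1.09 in recovery. In 5aza-dC it narrowly missed detection (detection p-value 0.0101, cutoff 0.01), so that fold is taken against its own level. No gene of this list was called in recovery at an offset of 50, without background correction, over genes detected in all 3 groups, with the mean of all probes of a gene or without the first recovery array. Myc, a growth-promoting factor, differed by -1.19 and -0.92. Atf3, a stress-induced factor, was 1.07 higher in 5aza-dC and differed by -0.43 in recovery. The arrays lay wholly below those of mock for 18 of the 25 genes in 5aza-dC (38.7% of all detected genes) and for 15 in recovery (32.5%), and wholly above for 5 (40.2%) and 3 (38.4%).

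ERK-responsive secreted and surface genes (18 of 20 measured, 13 detected) had 6 called lower and 1 higher in 5aza-dC (2.79% and 6.60% of all detected genes). In recovery 4 were called lower and none higher (1.58% and 1.70%). The medians against mock were -0.76 in 5aza-dC and -0.81 in recovery. Without a detection filter these medians were -0.27 and -0.33, and the recovery median was -1.18 with scaling to the all-probe median. The 4 recovery calls became 2 at an offset of 50 or without background correction, and 7 with that scaling. Hbegf differed by -2.33 and -1.81, Il11 by -1.96 and -1.31, and Trib1, a pseudokinase, by -2.32 and -1.13. Plaur, the urokinase receptor, gave -1.66 and -0.99, and Plau, urokinase itself, -0.76 and -1.46. Phlda2, a relative of Phlda1 that is imprinted in the mouse, was 1.86 higher in 5aza-dC and at -0.03 in recovery, unlike Phlda1.

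**Figure D4:**
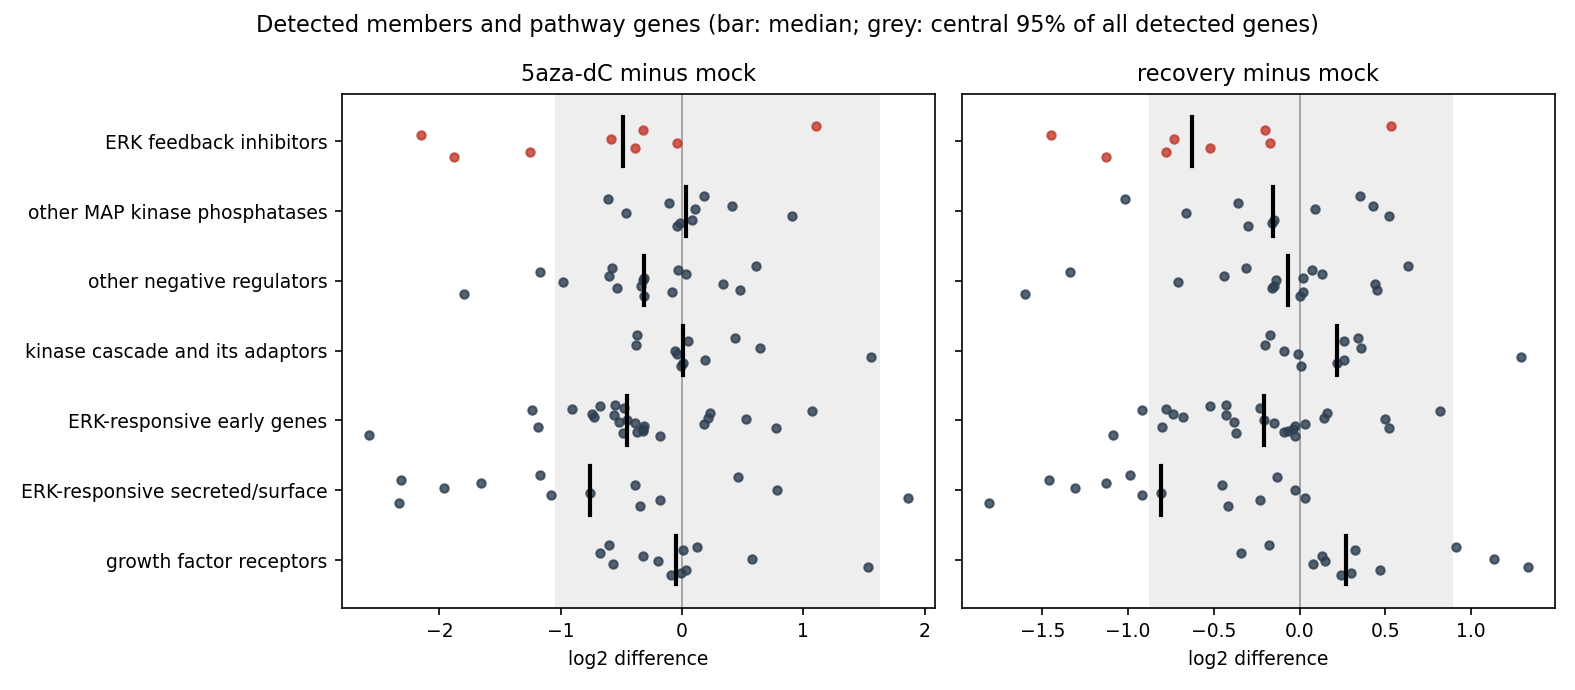
Log2 differences of the detected members (red) and of the detected genes of 6 pathway lists (dark points) in 5aza-dC against mock and in recovery against mock. Bars are list medians and the grey band holds the central 95% of all detected genes. The kinase cascade has medians of 0.01 and 0.22 (-0.05 and -0.13 with scaling to the all-probe median), and the secreted and surface genes have medians of -0.76 and -0.81 over their detected genes.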

How the data were processed

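RNA of 3 groups of NIH/3T3 cells was amplified with a TotalPrep kit and read on Illumina arrays, per the labels' protocols. The first deposited table gives non-normalized signal intensity and detection p-values, per the file headers. The second deposited table gives intensity that the authors background-subtracted and scaled, as read from its values (mean 224.5 in each column). The software that made them is not given in the sources. Levels are neqc values (limma 3.58.1, R 4.3.3: normexp background correction from detection p-values, offset 16, quantile normalization, log2), and log2 differences are between columns. The solved arrays were normalized in the same way in a run of their own, so an array range is not centred on the column difference.

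All detection p-values lie on steps of 0.5 of 936 negative controls. The 2 arrays behind each column were solved as the scale factors for which the p-value is a sum of 2 functions, 1 per array, over p-values of 0.05 to 0.97. The factors were 1.1769 and 0.6836 in mock, 1.1369 and 0.9397 in 5aza-dC, and 1.2465 and 1.0622 in recovery. The p-value misfit had an SD of 1.31e-03, 1.16e-03 and 1.26e-03, against 3.82e-02, 2.88e-02 and 2.96e-02 for 1 array. With decreasing steps fitted to each array over all p-values, the misfit SD was 2.06e-05, 4.99e-05 and 1.70e-03, largest in recovery. The solving was tested on a simulated column, whose arrays differed less in scale than those of mock. The normalization was tested on a copy of the mock column in which chosen probes were raised or lowered by a known factor.

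Of the probes, 34885 had 1 gene symbol, 18 had several and were left out, and 10378 were not listed. Promoters are RefSeq sequences of GRCm38.p6. A fold is given as at least N-fold where the dimmer group was not detected, taken against the lowest level among detected probes of that group, or the probe's own level if higher. Such a fold holds for the main setting and is no limit over the alternatives.

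The members and the pathway lists were chosen with earlier results of these data known. The naming rule takes all members, up to 4 called genes per list, direction and comparison with mock, and the 5 genes nearest to the member with the largest difference. Map2k2 and the cell markers are named outside it, Map2k2 after its values were seen. Alternatives covered offset, background correction, scaling, the second table, detection filters, probe choice, fold minimum and leaving out each array. There were 0 columns of other samples.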

Additional observations from a re-analysis of the deposited data

How the results depend on the processing

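Of the 27 member differences, 20 kept their sign under all 14 alternatives that give one, the exceptions being Dusp4 in 5aza-dC against mock, Spry4 in recovery against 5aza-dC, Spred2 in both comparisons of recovery, and the undetected Spry2 in all 3. The 4 member calls in 5aza-dC against mock and the 2 in recovery against mock, counted at 2-fold, stayed within 1.5 times under all alternatives but these: in recovery against mock, 4 members were called under scaling to the all-probe median and 4 at a 1.5-fold minimum, and in recovery against 5aza-dC 3 were called at 1.5-fold.

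The median of the detected members in 5aza-dC against mock was -0.34 when no background was corrected, -0.35 at an offset of 50, -0.60 when columns were scaled to the all-probe median, -0.44 with the series matrix values, -0.39 without a detection filter, -0.92 over genes detected in all 3 groups, and -0.54 to -0.46 without each array in turn. In recovery against mock it was -0.87 under that scaling. In recovery against 5aza-dC it was 0.05 to 0.39 without each array, the lowest without the second recovery array. Genes of the 6 pathway lists called in recovery against mock, 11, numbered 6 at an offset of 50, 6 when no background was corrected, 17 with the series matrix values, 6 with the mean of all probes and 24 at 1.5-fold. Those called in recovery against 5aza-dC, 5, numbered 3, 1 and 2 with that offset, without correction and with the mean of all probes, 3 with scaling to the median and 22 at 1.5-fold. The 15 of 5aza-dC against mock became 30 at 1.5-fold, where 1369 of all detected genes were called higher and 1009 lower.

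Scaling to the all-probe median turned the median of all detected genes to -0.15, -0.29 and -0.16 in 5aza-dC against mock, recovery against mock and recovery against 5aza-dC. It also turned the medians of the other MAP kinase phosphatases (-0.08) and the kinase cascade (-0.05) in 5aza-dC against mock, of the kinase cascade (-0.13) and the receptors (-0.07) in recovery against mock, and of the other negative regulators (-0.05) and the secreted genes (-0.01) in recovery against 5aza-dC. Near 0, the sign also turned for all detected genes with the series matrix values in recovery against 5aza-dC (-0.01), and in 5aza-dC against mock for all detected genes over genes detected in all groups and with the mean of all probes (-0.02 each), for the other phosphatases under the same settings (-0.02 and -0.01), and for the kinase cascade without the first mock array (-0.03 to 0.17 without each array in turn). No cause was tested (scaling: see Dusp1). Over all detected genes at 2-fold, the 593 called higher in 5aza-dC against mock ranged from 283 to 771 and the 251 lower from 119 to 420. In recovery against mock the 153 higher ranged from 56 to 217 and the 142 lower from 44 to 467, and in recovery against 5aza-dC the 80 higher from 30 to 104 and the 394 lower from 190 to 560. Scaling to the median put the share of calls that were higher at 55.4%, 13.5% and 6.0%, against 70.3%, 51.9% and 16.9%. No paired analysis was possible because the labels give 1 sample per group and no replicate numbers. Signals near background limit what can be said of Spry2, Spry4 and Spred2.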
